A study of Mus musculus with 12 samples.

Results

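The endoplasmic reticulum (ER) folding and disposal genes described here are Hspa5, Hsp90b1, Calr, Pdia4, Sdf2l1 and Dnajb9, which encode chaperones and folding enzymes, Herpud1, Syvn1 and Edem1, which serve ER-associated degradation (ERAD), and Xbp1, a transcription factor that controls both. They were picked by symbol, with earlier results of these data known, through Ensembl IDs named on GRCm38. All 10 had a row among the 12483 genes of the count table and passed the filter on low counts. RNA was measured in RAW 264.7 cells, a mouse macrophage line grown from a virus-induced tumour. The KO clones carried a CRISPR deletion of NRE1, a name the labels do not spell out, made with a pair of constructs against its flanks, selected by GFP and Puro and grown from single cells. The WT clones are labelled as wild type for NRE1, and the one protocol given for all libraries does not say whether they had been through the same transfection. The libraries fall into 4 groups: KO clones 1A, 1B and 2 stimulated for 6 h with LPS (10 ng/mL) and IFN-gamma (50 ng/mL), the same KO clones in medium, WT clones 1, 2 and 3 given the same mixture, and the same WT clones in medium. Each clone gave 1 library per condition, so each group held 3 libraries. LPS is a bacterial cell wall component that activates Toll-like receptor 4, and IFN-gamma is a lymphocyte cytokine.

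Proteins bound for secretion or for membranes fold inside the ER, where Hsp70 and Hsp90 type chaperones, lectins and disulfide isomerases act on them. Chains that fail to fold are moved back to the cytosol, marked with ubiquitin and degraded, which is ERAD. When unfolded chains build up, the sensors IRE1, ATF6 and PERK start the unfolded protein response (UPR), and 2 of its factors, ATF6 and the spliced form of XBP1, bind elements in the promoters of chaperone and ERAD genes. Macrophages make large amounts of secreted cytokines, and XBP1 is known to act downstream of Toll-like receptors in mouse macrophages.

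The best known of these elements is the ER stress element (ERSE), CCAAT and CCACG with 9 bases of any kind between them. It was searched on both strands in RefSeq promoter windows of GRCm38.p6, from 250 bases before to 50 bases after each gene's start. The stretches around each match are shown for 5 of the 10 genes, 4 with ERSE and Herpud1 with the related ERSE-II. The elements and the genes both come from textbook knowledge of the UPR, so the matches are a description and no test. Capitals mark the matched letters, read 5′ to 3′ on the gene's strand.
Hspa5 (chr2:34772017-34772051, plus strand): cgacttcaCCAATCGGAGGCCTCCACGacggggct
Syvn1 (chr19:6046524-6046558, plus strand): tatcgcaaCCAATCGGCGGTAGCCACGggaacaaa
Calr (chr8:84847067-84847101, minus strand): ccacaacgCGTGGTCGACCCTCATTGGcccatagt
Hsp90b1 (chr10:86705525-86705664, minus strand): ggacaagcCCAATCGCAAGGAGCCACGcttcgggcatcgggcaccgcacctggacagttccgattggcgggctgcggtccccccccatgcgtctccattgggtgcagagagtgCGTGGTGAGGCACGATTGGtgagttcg
Herpud1 (chr8:94386369-94386395, plus strand): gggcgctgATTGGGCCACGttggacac

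The first 4 stretches hold the ERSE letters, which stood in the windows of 4 of the 10 genes, against 37 of the 27025 genes with a promoter entry (0.137%). In Hspa5 the match lay from base -65 to -47 before the start, in Syvn1 from -44 to -26, and in Calr, on the opposite strand, from -162 to -144. Hsp90b1 held a pair, from -212 to -194 and, on the opposite strand, from -107 to -89. Herpud1 held the related ERSE-II, ATTGG and CCACG with 1 base of any kind between them, from -52 to -42, a match found in 12 of 27025 genes (0.0444%). The UPR element core TGACGTGG was in none of the 10 windows and in 0.714% of all genes. The CCACG box alone, which is also part of ERSE and ERSE-II, was in 9 of the 10, all but Xbp1, and in 35.5% of all genes. These are matches of letters, the genes are textbook UPR targets, and no factor binding was measured.

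Total counts per library ran from 10624591 to 14388590. All 8 macrophage markers examined had counts, from Lyz2 at 2080 to 16200 CPM (counts relative to library size) down to Mertk at 0 to 3 CPM. Of the markers of other cell types, S100a8 of neutrophils reached 2.43 CPM and those of T cells, B cells, fibroblasts and epithelia were not analysed here. KO 1A and KO 1B were closer to each other (coefficient of variation 4.87% and 5.97%) than any other pair of clones (15.7% to 33%), and the labels do not say whether they stem from 1 clone. Calls between genotypes are therefore also given with the counts of KO 1A and 1B summed. Nothing in the labels says that the libraries are more than 1 culture per clone, so p-values measure the spread between clones as labelled. Where KO 1A and 1B are kept separate, the KO spread rests partly on that close pair. In such bulk RNA, fewer cells expressing a gene and less RNA per cell cannot be told apart.

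Per kilobase of exon, the 3 large chaperone genes were by far the most abundant. In stimulated KO clones Hspa5 stood at 1197 ± 114 CPM per kb (SD, n = 3), Calr at 739.8 ± 102 and Hsp90b1 at 629.7 ± 14.7. Pdia4 followed at 180.1 ± 15.5 CPM per kb and Herpud1 at 133 ± 10.5, then Sdf2l1 and Xbp1, both at 118 and alike within their spread. Edem1 stood at 75.0 ± 5.13, and Dnajb9 and Syvn1 were lowest at 11.4 ± 2.69 and 7.34 ± 0.97 CPM per kb. In WT medium the order at the top was Calr (519 ± 20.3 CPM per kb), Hsp90b1 (398 ± 68.9) and Hspa5 (391 ± 25.0), with the last pair alike within their spread. Edem1, at 121 ± 13.5 CPM per kb, then stood beside Pdia4 (112 ± 21.7), and Herpud1 ranked below Xbp1, at 27.7 ± 0.94 against 70.0 ± 11.2 CPM per kb.

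**Figure D1:**
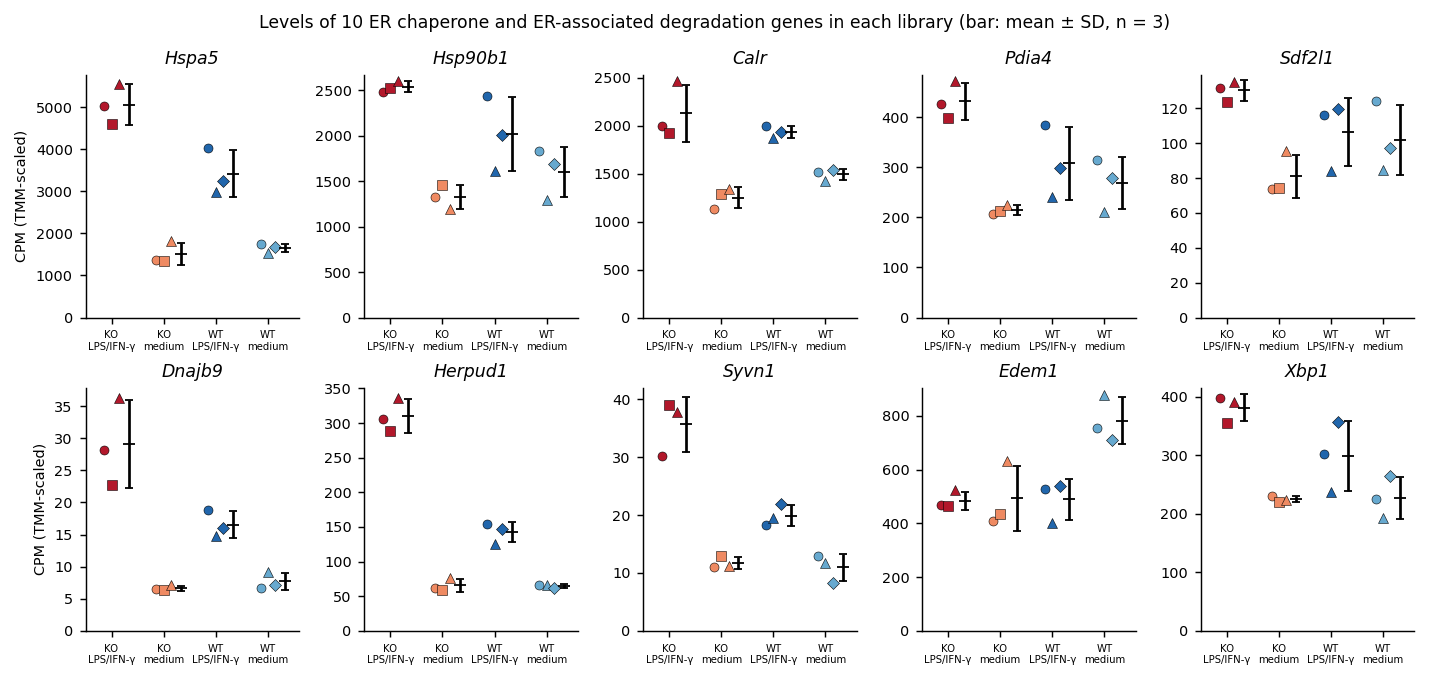
Level of each gene in every library, as TMM-scaled CPM on a linear axis from 0, by group (KO with LPS/IFN-gamma, KO medium, WT with LPS/IFN-gamma, WT medium). Circles are KO 1A or WT 1, squares KO 1B, triangles KO 2 or WT 2, diamonds WT 3, and bars give the mean ± SD (n = 3). For Herpud1, all 3 stimulated KO libraries (289 to 337 CPM) lie above the stimulated WT libraries (126 to 154 CPM), while both groups in medium lie between 59.2 and 76.7 CPM.

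LPS/IFN-gamma raised 9 of the 10 genes in KO clones, and 5 of them in WT clones, where 1 fell and 4 were not called. Across all 12231 genes tested, 26.7% were called higher and 27.6% lower in KO clones, and 23.8% higher in WT clones (edgeR quasi-likelihood test, Benjamini-Hochberg adjusted p below 0.05). The median log2 fold change of the 10 genes was 0.97 in KO clones and 0.38 in WT clones, where the median of all genes was -0.01 in each. All 9 had their 3 stimulated KO libraries above the 3 in medium, as 34.1% of all genes did, and in WT clones 5 did, as 25.2% of all genes. When only library totals were used for scaling, all genes together had a median of -0.39 in KO and -0.37 in WT clones, 7 of the 10 rose in KO clones, 4 rose and 1 fell in WT clones, and the medians of the 10 were 0.59 and 0.02. With clone as a block, a fit that pairs the libraries of a clone, 9 of the 10 rose in KO clones. In WT clones 7 rose and 1 fell under the block. That fit called 3925 of all 12231 genes higher in KO clones and 3649 in WT clones.

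Hspa5 encodes BiP, the Hsp70 of the ER lumen and the chaperone that holds the UPR sensors inactive. It stood at 5024, 4601 and 5559.8 CPM in stimulated KO clones 1A, 1B and 2, against 1369, 1337 and 1809 CPM in the same clones in medium. In WT clones 1, 2 and 3 it stood at 4036, 2978 and 3248 CPM with LPS/IFN-gamma, against 1737, 1534 and 1686 CPM in medium. No stimulated library overlapped a medium one, and the rise was 3.36-fold in KO clones (log2 1.75 ± 0.16 SE, adjusted p = 1.1e-05) and 2.07-fold in WT clones (1.05 ± 0.16, adjusted p = 0.00036).

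Hsp90b1, the ER-resident Hsp90 that folds Toll-like receptors and integrins, had 2488, 2525 and 2604 CPM in stimulated KO clones against 1331, 1456 and 1197 CPM in medium. In WT clones it had 2437, 1617 and 2004 CPM with LPS/IFN-gamma against 1829.6, 1293 and 1687 CPM in medium, and these groups overlapped. It rose 1.91-fold in KO clones (log2 0.94 ± 0.17, adjusted p = 0.00086). In WT clones the log2 change was 0.33 ± 0.17 (adjusted p = 0.13), called once clone entered as a block (0.33 ± 0.09, adjusted p = 0.0093), a fit that called 29.8% of all genes higher, and without stimulated WT 2 (0.47, adjusted p = 0.038), and -0.02 under library totals.

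Pdia4 encodes a protein disulfide isomerase. It had 426, 398 and 472 CPM in stimulated KO clones against 206, 212 and 225 CPM in medium, and 384, 240.3 and 299 CPM in stimulated WT clones against 314, 212 and 279 CPM in medium. The KO groups were well apart and the WT groups overlapped. The log2 change was 1.01 ± 0.18 in KO clones (adjusted p = 0.00073) and 0.20 ± 0.18 in WT clones (adjusted p = 0.38).

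Calr encodes calreticulin, the soluble lectin chaperone of glycoproteins. Its level was 2001, 1923 and 2468 CPM in stimulated KO clones against 1132, 1285 and 1339 CPM in medium. Stimulated WT clones had 2000.2, 1872 and 1931 CPM, against 1515, 1428 and 1539 CPM in medium. Neither genotype's groups overlapped. It rose by 0.77 ± 0.12 (log2) in KO clones (adjusted p = 0.00033) and by 0.37 ± 0.12 in WT clones (adjusted p = 0.025). The WT call was lost without stimulated WT 1 (adjusted p = 0.058), stimulated WT 3 (0.052), medium WT 1 (0.055) or medium WT 2 (0.069), and under library totals (0.01, adjusted p = 0.92).

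Sdf2l1, a subunit of the ER chaperone complex that works with BiP, had 132, 124 and 135 CPM in stimulated KO clones against 73.5, 74.2 and 95.3 CPM in medium. WT clones had 116, 83.8 and 119 CPM with LPS/IFN-gamma and 124, 84.8 and 97.0 CPM in medium, with full overlap. The log2 change was 0.69 ± 0.17 in KO clones (adjusted p = 0.0061) and 0.06 ± 0.17 in WT clones (adjusted p = 0.79). The KO call was lost with KO 1A and 1B summed (0.64, adjusted p = 0.052) and under library totals (0.31, adjusted p = 0.15). The KO rise of Xbp1 was likewise lost under library totals (0.38, adjusted p = 0.054).

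Dnajb9 encodes ERdj4, a J-domain partner of BiP. It was low, at 28.1, 22.7 and 36.3 CPM in stimulated KO clones against 6.45, 6.29 and 7.07 CPM in medium, and at 18.8, 14.8 and 16.0 CPM in stimulated WT clones against 6.74, 9.24 and 7.09 CPM in medium. The groups did not overlap in either genotype. It rose 4.39-fold in KO clones (log2 2.14 ± 0.20, adjusted p = 1e-05) and 2.15-fold in WT clones (1.11 ± 0.19, adjusted p = 0.00083).

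Among the ERAD genes, Herpud1 moved most. It encodes a membrane protein that assembles the retrotranslocation complex around the ligase HRD1. Stimulated KO clones had 306, 289 and 337 CPM, against 62.1, 59.2 and 76.7 CPM in medium, and stimulated WT clones had 154, 126 and 147 CPM, against 66.1, 65.9 and 62.2 CPM in medium. The stimulated groups lay apart from each other and from both medium groups, which overlapped. The rise was 4.70-fold in KO clones (log2 2.23 ± 0.12, adjusted p = 3.7e-07) and 2.20-fold in WT clones (1.13 ± 0.12, adjusted p = 3.2e-05).

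Syvn1, which encodes the ubiquitin ligase HRD1 itself, had 30.3, 39.0 and 37.8 CPM in stimulated KO clones against 11.1, 13.0 and 11.3 CPM in medium. In WT clones it had 18.3, 19.5 and 21.9 CPM with LPS/IFN-gamma against 12.9, 11.7 and 8.34 CPM in medium. All stimulated libraries were above the medium libraries of their genotype. It rose by 1.60 ± 0.17 (log2) in KO clones (adjusted p = 2.9e-05) and by 0.86 ± 0.17 in WT clones (adjusted p = 0.002).

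Edem1, a lectin-like protein that hands misfolded glycoproteins to ERAD, was not called in KO clones and fell in WT clones. In KO clones it had 467, 463 and 522 CPM with LPS/IFN-gamma and 409.9, 436 and 633 CPM in medium, which overlapped (log2 -0.03 ± 0.18, adjusted p = 0.91). Stimulated WT clones had 527, 403 and 538 CPM, against 753, 879 and 712 CPM in medium. It fell by 0.68 ± 0.18 on the log2 scale in WT clones (adjusted p = 0.009), and 23.6% of all genes were called lower there.

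Xbp1 encodes the factor whose spliced form drives many of these genes. Its total RNA stood at 399, 355 and 391 CPM in stimulated KO clones against 231, 219.7 and 224 CPM in medium, and at 302, 237 and 357 CPM in stimulated WT clones against 225, 192 and 265 CPM in medium. It rose by 0.76 ± 0.15 (log2) in KO clones (adjusted p = 0.0016). In WT clones, whose groups overlapped, the change was 0.39 ± 0.15 (adjusted p = 0.052). It was called there under the block (0.39 ± 0.07, adjusted p = 0.0016), with RLE size factors (0.41, adjusted p = 0.049), with DESeq2 (0.40, adjusted p = 0.032), without stimulated WT 2 (0.54, adjusted p = 0.0096) and without medium WT 3 (0.50, adjusted p = 0.023). Counts per gene do not separate its spliced from its unspliced form.

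**Figure D2:**
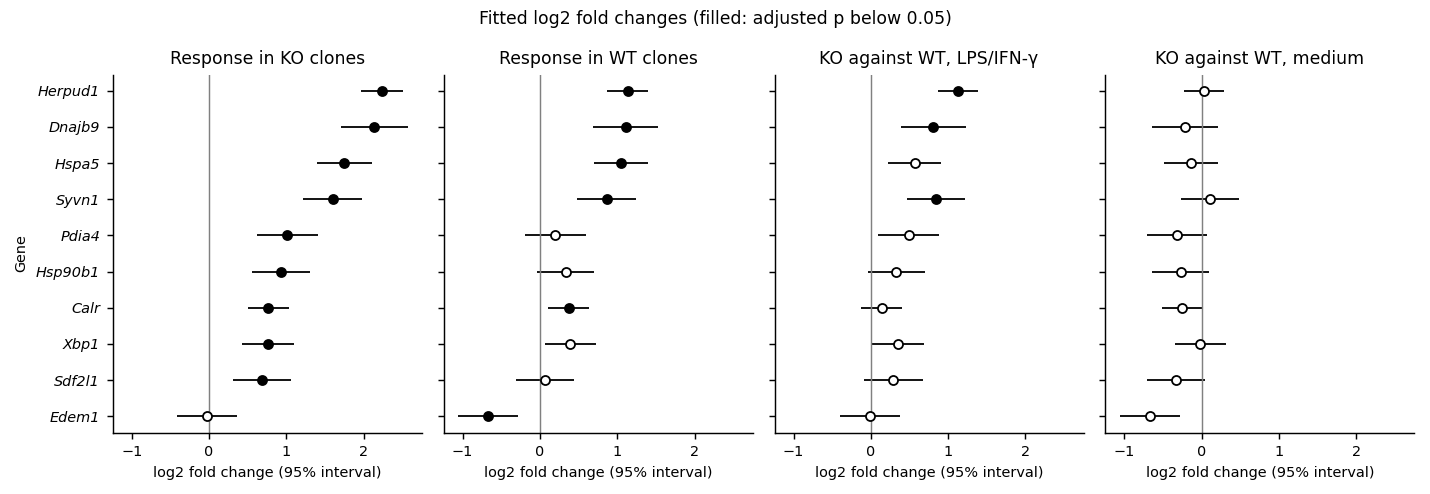
Fitted log2 fold changes of the 10 genes with 95% intervals in 4 comparisons: the response to LPS/IFN-gamma in KO clones, the response in WT clones, KO against WT under LPS/IFN-gamma, and KO against WT in medium. Filled points passed an adjusted p of 0.05: 9 in the KO response, 6 in the WT response (Edem1 below 0), 3 under LPS/IFN-gamma and none in medium.

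Under LPS/IFN-gamma, 3 of the 10 genes were called higher in KO than in WT clones, where 1.13% of all genes were, and none was called lower, where 3.51% were. Herpud1 was 2.18-fold higher (log2 1.13 ± 0.12, adjusted p = 0.0012), and its call held without each of the 6 stimulated libraries in turn and with KO 1A and 1B summed (1.16, adjusted p = 0.018). Syvn1 was higher by 0.84 ± 0.17 (adjusted p = 0.022) and Dnajb9 by 0.81 ± 0.19 (adjusted p = 0.036). The Syvn1 call was lost without KO 1B (adjusted p = 0.098), KO 2 (0.059), WT 1 (0.059) or WT 2 (0.056), and that of Dnajb9 without KO 1A (0.13), KO 2 (0.099), WT 2 (0.1) or WT 3 (0.063). Both were also lost with KO 1A and 1B summed (0.11 for Syvn1 and 0.13 for Dnajb9).

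Hspa5 missed the threshold at 0.57 ± 0.16 (95% interval 0.22 to 0.91, adjusted p = 0.069), and was called by DESeq2 (adjusted p = 0.0065) and without WT 1 (0.70, adjusted p = 0.047). Pdia4 stood at 0.49 (0.10 to 0.88), Xbp1 at 0.35 (0.02 to 0.69), Hsp90b1 at 0.33 (-0.04 to 0.70), Sdf2l1 at 0.29 (-0.09 to 0.67), Calr at 0.14 (-0.12 to 0.40) and Edem1 at -0.01 (-0.40 to 0.37). In 7 of the 10 genes, all but Edem1, Xbp1 and Calr, the 3 stimulated KO libraries lay above the 3 stimulated WT libraries, as they did for 11.3% of all genes. The median of the 10 was 0.42 and that of all genes -0.02. Scaled by library totals, the summed level of the 8 macrophage markers was 3190 to 7110 CPM in these KO libraries and 6760 to 14600 CPM in the WT libraries, and its part in the differences was not tested. On average Lyz2 was the largest of the 8, at 4255 ± 2710 CPM in KO and 10905 ± 4299 CPM in WT clones (TMM-scaled). Mertk was higher in KO clones (2.67 ± 0.75 against 0.62 ± 0.44 CPM, TMM-scaled), and 0 of the 8 were called between genotypes.

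In medium, none of the 10 genes was called between KO and WT clones by edgeR, where 1.21% of all genes were. At an unadjusted p below 0.05 there was 1, Edem1, where 14.1% of all genes passed, and DESeq2 called the same gene (adjusted p = 0.013). Edem1 was lower in KO clones in all 3 libraries, by 0.66 ± 0.18 (95% interval -1.05 to -0.28, adjusted p = 0.1), and was called without KO 2 (-0.89, adjusted p = 0.029). Calr, at -0.25 (-0.52 to 0.01), was the other gene whose groups did not overlap, as 11.4% of all genes did in this direction. The remaining 8 lay between -0.33 for Sdf2l1 (-0.71 to 0.04) and 0.11 for Syvn1 (-0.27 to 0.49). Scaled by library totals, the macrophage markers summed to 4640 to 15000 CPM in KO and 8470 to 20300 CPM in WT medium libraries, and their part was not tested. On average Lyz2 was again the largest, at 4818 ± 4973 CPM in KO and 10038 ± 4913 CPM in WT medium (TMM-scaled), and 1 of the 8 markers was called lower in KO clones.

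The difference between the responses of KO and WT clones was the pattern all 10 genes shared. In every gene, the response of each of the 3 KO clones was above that of each of the 3 WT clones. This was so for 8.25% of all genes tested. The 10 genes were chosen with earlier results of these data known, so setting them beside all genes is a description and no test. The smallest p of an exact two-sided permutation test with 3 clones against 3 is 0.1, which each gene reached. With KO 1A and 1B summed, the responses of both KO values were above all 3 WT responses in all 10 genes and in 12.2% of all genes, with an exact p of 0.1 or, for Sdf2l1, Edem1 and Syvn1, 0.2. These responses use the same libraries as the comparisons of genotypes above, and the genes share the libraries, so the 10 are not independent. A response is relative to medium, so a lower KO level in medium also makes it larger. Edem1 averaged 484 CPM in stimulated KO and 489 CPM in stimulated WT clones, against 493 and 781 CPM in medium. Calr averaged 2131 and 1934 CPM with LPS/IFN-gamma, and 1252 and 1494 CPM in medium. The median KO against WT difference of the 10 was 0.42 (log2) with LPS/IFN-gamma and -0.24 in medium.

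Herpud1 responded by 2.30, 2.28 and 2.13 (log2) in KO 1A, 1B and 2, against 1.22, 0.93 and 1.24 in WT 1, 2 and 3. Dnajb9 responded by 2.10, 1.82 and 2.33 in KO clones against 1.46, 0.67 and 1.16 in WT clones. For Hspa5 the KO responses were 1.88, 1.78 and 1.62 and the WT responses 1.22, 0.96 and 0.95. The lowest KO response was above the highest WT response in each of these 3 genes, and WT 2 was the lowest clone in Herpud1 and Dnajb9.

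Syvn1 came closest to overlap, at 1.43, 1.58 and 1.73 in KO clones against 0.50, 0.73 and 1.38 in WT clones. Pdia4 was among the tightest, at 1.04, 0.91 and 1.07 in KO clones against 0.29, 0.18 and 0.10 in WT clones. Hsp90b1 responded by 0.90, 0.79 and 1.12 in KO clones against 0.41, 0.32 and 0.25 in WT clones. Each of these genes was above 0 in all 6 clones, although Pdia4 and Hsp90b1 had WT means below 0 under library totals.

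Calr responded by 0.82, 0.58 and 0.88 in KO clones against 0.40, 0.39 and 0.33 in WT clones, and Xbp1 by 0.79, 0.69 and 0.80 against 0.42, 0.30 and 0.43. Mean KO and mean WT responses lay closest together in this pair. Sdf2l1 had 0.84, 0.74 and 0.50 in KO clones and -0.10, -0.02 and 0.30 in WT clones. Edem1 had 0.19, 0.09 and -0.28 in KO clones and -0.52, -1.13 and -0.40 in WT clones, and it was the gene of the 10 with a response below 0 in all 3 WT clones.

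**Figure D3:**
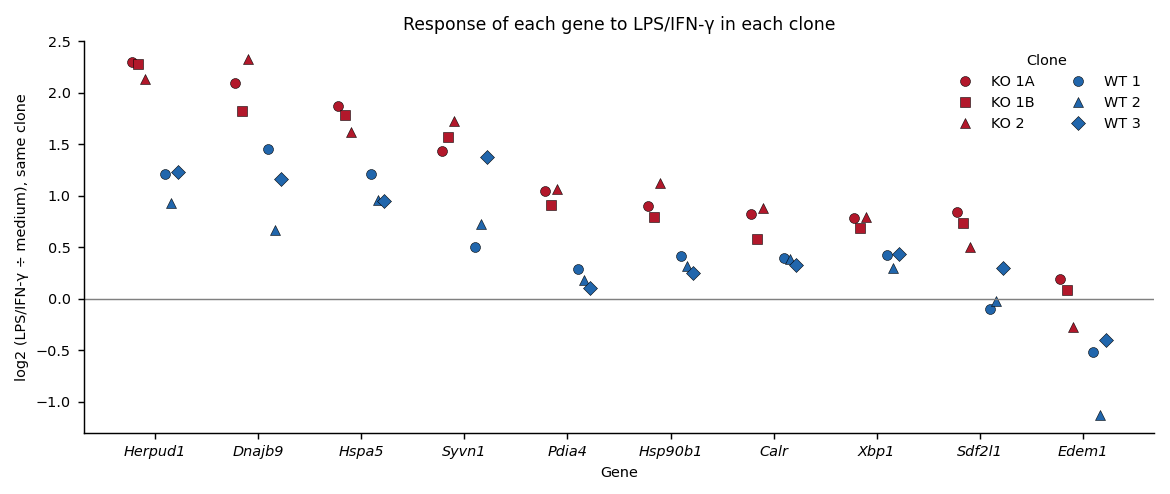
Response to LPS/IFN-gamma of each gene in each clone, as the log2 ratio of the stimulated to the medium library of the same clone, for the 3 KO clones (red) and the 3 WT clones (blue), with genes ordered by their mean KO response. In every gene the 3 KO points lie above the 3 WT points, from Herpud1 (2.13 to 2.30 against 0.93 to 1.24) to Edem1 (-0.28 to 0.19 against -1.13 to -0.40).

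Tested as an interaction across all genes, this difference was called by some fits and not by others. The edgeR fit without a block called 0 of 12231 genes and 0 of the 10. At an unadjusted p below 0.05 it held 9 of the 10, all with the larger response in KO clones and all but Xbp1, where 5% of all genes passed and 2.17% passed in that direction. In the ER gene lists described below, 41.7% of folding, 16.7% of ERAD, 30% of sensor and factor and 21.7% of translocation genes passed. DESeq2 called 22 genes, among them Herpud1 alone of the 10 (adjusted p = 8e-06). The median interaction of the 10 was 0.67 on the log2 scale, against -0.01 for all genes, and 0.65 under library totals.

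With clone as a block, the fit that pairs the libraries of a clone, 40 genes were called (0.327%), 20 of them with the larger response in KO clones (0.164%). Herpud1 was one, with a response larger by 1.11 ± 0.13 in KO clones (adjusted p = 0.017, and 0.12 without the block), and Pdia4 the other of the 10, at 0.81 ± 0.11 (adjusted p = 0.029, and 0.76 without the block). Both calls were lost when KO 1A and 1B were summed (Herpud1 1.09, adjusted p = 0.17; Pdia4 0.83, adjusted p = 0.2), when no gene was called at all. They were also lost without KO 1A (0.22 and 0.32), without KO 1B (0.17 and 0.18) and without KO 2 (0.075 and 0.12), and held without each WT clone. Without WT 1 and WT 3 the block called 92 and 198 genes.

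The other interactions with clone as a block were 1.00 ± 0.24 for Dnajb9 (adjusted p = 0.13), 0.72 ± 0.13 for Hspa5 (0.062), 0.61 ± 0.12 for Hsp90b1 (0.084) and 0.63 ± 0.15 for Sdf2l1 (0.12). They were 0.68 ± 0.20 for Edem1 (0.24), 0.72 ± 0.23 for Syvn1 (0.26), 0.37 ± 0.10 for Xbp1 (0.19) and 0.39 ± 0.12 for Calr (0.24). All 10 were above 0 in every fit run, from 0.23 for Xbp1 at the lowest to 1.23 for Herpud1 at the highest.

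Genes that work beside these 10 were read from lists written from textbook knowledge. Of all genes tested, 26.7% rose and 27.6% fell in KO clones and 23.8% rose and 23.6% fell in WT clones. Of 24 other ER folding genes, 14 rose and 1 fell in KO clones (median 0.59), and 9 rose and 4 fell in WT clones (median 0.24). Under library totals these became 11 and 6 in KO clones and 3 and 7 in WT clones, with a WT median of -0.12. Creld2, an ER stress-induced protein of the ER, rose by 1.88 ± 0.21 in KO clones (adjusted p = 3.1e-05) and 0.96 ± 0.20 in WT clones (0.0025). Manf, a secreted survival factor retained in the ER by BiP, rose by 1.74 ± 0.17 (1.5e-05) and 0.81 ± 0.17 (0.0024). Erp29, a thioredoxin-fold protein of the lumen, fell in both, by 1.60 ± 0.14 in KO clones (7.3e-06) and 1.17 ± 0.14 in WT clones (7e-05), and the oxidase gene Ero1b fell by 0.60 ± 0.15 in WT clones (0.0071).

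Of 24 other ERAD genes, 16 rose and 1 fell in KO clones (median 0.54), and 12 rose and 1 fell in WT clones (median 0.27), beside 26.7% higher and 27.6% lower of all genes in KO and 23.8% and 23.6% in WT clones. With library totals the counts were 10 and 6 in KO clones and 5 and 6 in WT clones, with a WT median of -0.09. Selenos, a membrane selenoprotein of the retrotranslocation machinery, rose by 1.58 ± 0.09 in KO clones (adjusted p = 4.3e-07), and Ubxn4, which anchors the ATPase VCP at the ER, by 1.17 ± 0.14 (4.5e-05). In WT clones the highest were Herpud2 at 1.17 ± 0.17 (0.00025) and the ubiquitin ligase gene Rnf139 at 1.13 ± 0.13 (5.7e-05). The lectin gene Erlec1 fell by 0.51 ± 0.19 in KO clones (0.039) and the ligase gene Marchf6 by 0.37 ± 0.10 in WT clones (0.011).

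Genes of protein translocation and glycosylation rose in 16 of 23 cases in KO clones (median 0.51) and 12 of 23 in WT clones (median 0.30), with none lower. Of all genes 26.7% rose in KO and 23.8% in WT clones. Of the 23, 5 rose and 4 fell in KO and 3 rose and 3 fell in WT clones under library totals. The translocon pore gene Sec61a1 rose by 1.01 ± 0.09 (adjusted p = 7.3e-06) and the translocon-associated Ssr3 by 0.94 ± 0.10 (3.3e-05) in KO clones. In WT clones Ssr3 rose by 0.64 ± 0.10 (0.00052) and the signal peptidase gene Spcs1 by 0.61 ± 0.15 (0.007).

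Of 10 UPR sensors, proteases and factors, 3 rose and 2 fell in each genotype (median 0.05 in KO and -0.19 in WT clones), near the shares of all genes (26.7% and 27.6% in KO, 23.8% and 23.6% in WT clones). Ddit3, which encodes the stress factor CHOP, rose by 2.96 ± 0.27 in KO clones (adjusted p = 1e-05) and 1.69 ± 0.26 in WT clones (0.00041). Creb3, an ER-anchored factor, rose about equally, by 1.93 ± 0.12 (6.7e-07) and 1.85 ± 0.12 (1.2e-06). Mbtps1, the Golgi protease that cleaves ATF6, fell by 0.54 ± 0.10 in both (0.0007 and 0.00096), and Eif2ak3, which encodes PERK, fell by 0.43 ± 0.15 in KO clones (0.027) and 0.73 ± 0.15 in WT clones (0.002). Library totals gave 3 higher and 3 lower in KO clones and 3 higher and 6 lower in WT clones.

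**Figure D4:**
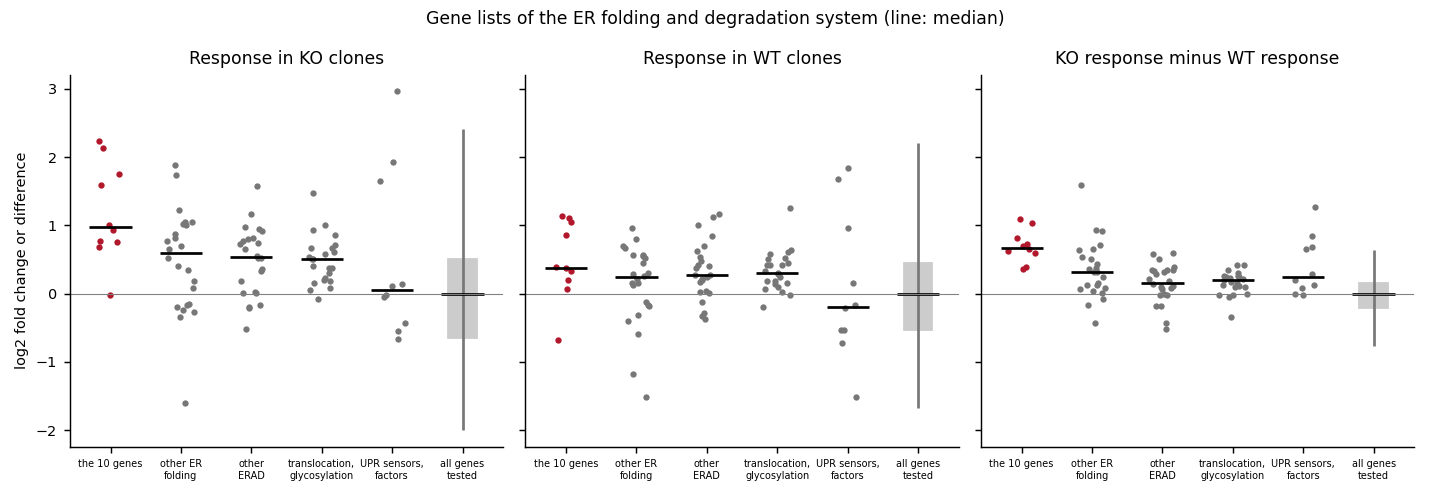
Log2 fold changes of the 10 genes (red) and of the other lists (grey points, black line at the median), with the 5th to 95th percentiles, middle quartiles and median of all 12231 genes tested at the right, for the KO response, the WT response and the KO response minus the WT response. In the last panel the median is 0.67 for the 10 genes, 0.32 for other ER folding genes, 0.16 for other ERAD genes, 0.21 for translocation and glycosylation, 0.25 for sensors and factors and -0.01 for all genes.

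Between genotypes in medium, none of these other genes was called by edgeR, with 3 folding, 4 ERAD, 2 sensor and factor and 1 translocation gene at an unadjusted p below 0.05 (12.5%, 16.7%, 20% and 4.35% of the lists, and 14.1% of all genes), and DESeq2 called 2 folding genes and 1 translocation gene. Under LPS/IFN-gamma, where edgeR called 1.13% of all genes higher and 3.51% lower, 4 of the 24 folding genes were higher in KO clones: Manf (0.74 ± 0.17, adjusted p = 0.034), the Hsp70-like Hyou1 (0.66 ± 0.13, 0.018), Serp1 (0.62 ± 0.13, 0.026) and the scarce Tmem132a, at 4.31 ± 1.60 CPM in KO clones and 0.375 ± 0.232 CPM in WT clones (SD, n = 3; 3.47 ± 0.66, 0.018). In medium Tmem132a stood at 4.07 ± 1.14 CPM in KO clones and 1.10 ± 0.96 CPM in WT clones. Erp29 was lower (-0.65 ± 0.14, 0.027). Selenos (0.40 ± 0.09, 0.031), Sec61a1 (0.39 ± 0.09, 0.031) and the signal peptidase gene Sec11a (0.41 ± 0.09, 0.035) were higher, and its relative Sec11c was lower (-0.77 ± 0.09, 0.0019). With KO 1A and 1B summed, Sec11c was still called (-0.74 ± 0.12, adjusted p = 0.036) and the other 8 were not (adjusted p = 0.1 to 0.19). DESeq2 called 9 folding, 3 ERAD, 1 sensor and factor and 5 translocation genes under LPS/IFN-gamma, and 1153 of all genes. By edgeR at an unadjusted p below 0.05 there, 62.5% of folding, 16.7% of ERAD, 20% of sensor and factor and 34.8% of translocation genes passed. So did 60% of the 10 and 21.2% of all genes. In the interaction DESeq2 called 1 ERAD and 1 translocation gene of these lists, and 22 of all genes. With clone as a block, the interaction was called for 3 folding genes, named after their values were seen: Manf (0.93 ± 0.11, adjusted p = 0.017), Creld2 (0.90 ± 0.12, 0.025) and Hyou1 (0.72 ± 0.10, 0.038). All 3 calls were lost with KO 1A and 1B summed (adjusted p = 0.17 for Manf and Creld2 and 0.21 for Hyou1).

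The genes whose levels followed the mean of the 10 most closely over the 12 libraries, among 8745 genes with at least 10 CPM, were Manf (Pearson r = 0.990), Dnajb11 (0.985), Creld2 (0.983), Ddit3 (0.983) and Nars (0.980). Dnajb11 encodes another J-domain partner of BiP, and Nars the cytosolic asparaginyl-tRNA synthetase. Manf had 487 ± 50.9 CPM in stimulated KO clones, 146 ± 18.7 in KO medium, 293 ± 45.2 in stimulated WT clones and 167 ± 31.2 in WT medium (SD, n = 3). These correlations describe 12 libraries of which 6 are stimulated, so genes that rise in both genotypes score high. Of the 10 genes themselves, 9 followed the mean of the others at r = 0.831 (Sdf2l1) to 0.976 (Hspa5), and Edem1 did not (r = -0.312).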

How the data were processed

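The authors deposited 1 table of read counts, whole numbers per Ensembl gene in 12 libraries. The build was mm10 (GRCm38) and DESeq2 was used, with no version or role given, per the submitters' processing notes. Which aligner and counter were run, and whether strand was used, is "not given in the sources used here". Genes were named from GENCODE M21, which named 12305 of 12483 IDs. Of the exon length of Hsp90b1, 15.67% is shared with other genes. Symbols of the lists were matched through RefSeq synonyms (Ero1a, Ero1b, Marchf6), and Derl3 was not analysed here.

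Counts were analysed with edgeR 4.0.16 in R 4.3.3: filterByExpr left 12231 genes, scaling was by TMM, and the robust quasi-likelihood fit took 1 mean per group from all 12 libraries (8 residual degrees of freedom). Calls are at a Benjamini-Hochberg adjusted p below 0.05 over all genes tested. Log2 fold changes carry an SE obtained from the F statistic (log2 fold change over root F), and other errors are SD. CPM are TMM-scaled, except the ranges, maxima and sums of the markers, which use library totals. Means of single markers by group are TMM-scaled, so they are not on the scale of the sums. Per-clone responses use log2 CPM with a prior count of 2. Precision is set by 3 labelled clones a group, with a common coefficient of variation of 23.6%.

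Each clone has a library in each condition, which pairs them. After subtracting group means, a clone's stimulated and medium libraries had an r of 0.321 (KO 1A), 0.287 (KO 1B), 0.508 (KO 2), 0.642 (WT 1), 0.700 (WT 2) and 0.620 (WT 3). The highest r with the medium library of another clone of that genotype was 0.182, 0.274, -0.324, -0.114, -0.406 and -0.203, in the same order. For KO 1B this was close to the r with its own medium library. The fit with clone as a block (4 residual degrees of freedom, coefficient of variation 11.7%) was the alternative, beside RLE factors, library totals, no filter, DESeq2 1.42.0, KO 1A and 1B summed, and each library left out. The block with KO 1A and 1B summed or without each clone, and the summed counts for the other lists and the per-clone responses, were added after seeing the data. On simulated counts the fit recovered 94% of genes changed 4-fold in the KO response (abs log2 of 2) and 87% in the interaction. Of genes changed by a log2 of 1 it recovered 61% and 27%, among 12082 genes. It also called 6 unchanged genes in the KO response and 4 in the interaction. The simulated libraries were drawn independently, so recovery with a pair as close as KO 1A and 1B was not measured. Changes were planted only in the stimulated KO libraries and only in genes above a minimum mean CPM. The spread of each gene was taken from the fit itself. The rates therefore do not cover the scarcest genes tested.

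The members and lists were chosen with earlier results of these data known. The text names all 10 members. Of each other list it names up to 2 called genes at each end of each response and of the interaction, with at least 5 CPM in 1 group. It adds the 5 genes most correlated with the mean of the 10, and, chosen after their values were seen, those called between genotypes or with the block.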

Additional observations from a re-analysis of the deposited data

Results flagged for a closer look

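In Herpud1 and Pdia4 the response to LPS/IFN-gamma differed between KO and WT clones by the interaction test with clone as a block. The KO response was larger by 1.11 (log2) for Herpud1 and by 0.81 for Pdia4, in all 3 KO clones against all 3 WT clones. Neither was called by edgeR without the block, DESeq2 without a block called Herpud1 (adjusted p = 8e-06), and neither was called with the block once KO 1A and 1B were summed.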

How the results depend on the processing

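Directions of all 10 interactions and of the 9 KO rises held in every alternative run. With library totals alone, the median of the 10 genes was 0.59 in the KO and 0.025 in the WT response. Calls among translocation genes then numbered 9 in KO and 6 in WT clones (16 and 12 with TMM), and those among sensors and factors 9 in WT clones (5 with TMM). The WT responses of Hsp90b1 (-0.025), Sdf2l1 (-0.30) and Pdia4 (-0.16) turned sign, as did KO against WT for Xbp1 in medium (0.041) and for Edem1 under LPS/IFN-gamma (0.019, and 0.018 with KO 1A and 1B summed). Genes called between KO and WT in medium numbered 148 by edgeR, 621 by DESeq2, which called 1 of the 10, and 16 with KO 1A and 1B summed. Under LPS/IFN-gamma they numbered 567, 1153 and 73, the last with 1 of the 10. For the interaction DESeq2 called 22 genes and 1 of the 10. The replicate block, clone by clone, called 40 genes, 2 of the 10 and 3 other folding genes. With KO 1A and 1B summed in the block it called 0. Without clones KO 1A, KO 1B and KO 2 the block called 0, 1 and 0 genes, and without WT 1, WT 2 and WT 3 it called 92, 36 and 198, with 3, 2 and 4 of the 10. Leaving out 1 library gave 26 (KO medium 1A) to 253 (WT medium 3) genes in medium, with 0 to 1 of the 10, 104 (KO 1A) to 840 (WT 3) under LPS/IFN-gamma, with 1 to 3 of the 10, and 0 to 6 for the interaction without the block. It turned the sign of changes near 0: Edem1 in the KO response (-0.15 to 0.19), Sdf2l1 in the WT response (-0.0699 to 0.21), Herpud1 (-0.10 to 0.10), Syvn1 (-0.065 to 0.24) and Xbp1 (-0.13 to 0.10) between genotypes in medium, and Edem1 under LPS/IFN-gamma (-0.14 to 0.059). The cause was not tested. With KO 1A and 1B summed, 8 of the 10 genes rose in KO clones. The number of labelled clones, 3 a group, limits every test.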

Other observations

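The ERSE letters were also found in the promoter windows of 33 genes other than the 10, of which 11 were tested. Of these 11, 7 rose and 1 fell in KO clones (median log2 fold change 0.64, against -0.01 for all genes, of which 26.7% rose) and 4 rose and 1 fell in WT clones (median 0.16, against -0.01 for all genes, of which 23.8% rose). Those that rose in KO clones were Canx, Creld2, Dnajc3 and Pdia6, already counted in the folding list, and Alg12, 1700122E12Rik and Spats2l. The last pair was scarce, with means of 1.32 and 2.70 CPM. The interaction had a median of 0.25, and in 5 of the 11 all KO responses were above all WT responses, as in 8.25% of all genes. Those 5 were Canx, Creld2, Dnajc3, Ero1b and Pdia6, all already counted in the list of other ER folding genes. Pdia6, a disulfide isomerase gene, had log2 responses of 1.23 in KO and 0.57 in WT clones, and Dnajc3, a J-domain gene, 0.77 and 0.13. Ero1b was below 0 in both, at -0.23 and -0.60. By edgeR without the block, 0 of the 11 were called between genotypes under LPS/IFN-gamma and 0 in the interaction. The list was drawn up after the values were seen, and promoter entries cover part of the genome.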
